A study of Mus musculus with 4 samples.

Results

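Complement genes were measured in the prostates of 4 genetically altered mice, each set against a pool of wild-type prostate on a two-colour Agilent array. The genes were C3, C4, C1s, C1qa, C1qb, C1qc and Serping1, and every non-control probe carrying one of these names was kept, with C4b standing for C4. They are 7 of the 27962 gene names on the array, read by 9 of its 41174 non-control probes, 1 each for C1qa, C1qb, C1qc, Serping1 and C4b and 2 each for C1s and C3. No probe carried the plain name C4 or the older name C1qg. Of the 9 probes, 8 passed a filter on dim signal that 24852 of all probes passed, and the second C3 probe did not.

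The mutant group held 2 mice of genotype Rb1R654W/F:Trp53F/F:PB-cre4, in which 1 Rb1 allele codes for the R654W form of the retinoblastoma protein and the other is conditional. The null group held 2 mice of genotype Rb1F/F:Trp53F/F:PB-Cre4, in which both Rb1 alleles are conditional. All 4 mice were also homozygous for conditional Trp53, so no group isolates Rb1 from Trp53. PB-Cre4 is a Cre recombinase driven by a probasin promoter, which is active in prostate epithelium, so stromal and immune cells of the same gland are not its target. The mice were 60 days old, of mixed C57BL/6:129/SVJae:FVB strain and untreated. Each array carried the RNA of 1 mouse in the red Cy5 channel and RNA pooled from 3 wild-type mice in the green Cy3 channel, and the dyes were not swapped. Values are log2 ratios of mouse over pool, so 0 is the level of the pool and 1 is a doubling.

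Complement is a cascade of plasma and tissue proteins that tags cells and particles for removal and can end in a pore in the target membrane. In the classical pathway the C1q molecule, built of the A, B and C chains encoded by C1qa, C1qb and C1qc, binds its target and activates the bound proteases C1r and C1s. C1s cleaves C4 and C2 to form the enzyme that splits C3, on which all routes of the cascade converge. Serping1 codes for the C1 inhibitor, which blocks C1r and C1s. C1q is made mainly by macrophages and dendritic cells, whereas C3, C4, C1s and the C1 inhibitor are made in the liver and also by fibroblasts, epithelial cells and macrophages in tissues.

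The probes are 60 bases long, and those of 5 genes on which the results turn are given in lower case, 5′ to 3′, as the array files list them. They are shown because these genes shared a low value in 1 null mouse, and the dimmer C1s probe is added because the 2 probes of C1s gave unlike values.
C1qa: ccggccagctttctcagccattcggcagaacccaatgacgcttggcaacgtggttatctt
C1qb: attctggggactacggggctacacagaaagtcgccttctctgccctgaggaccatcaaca
Serping1: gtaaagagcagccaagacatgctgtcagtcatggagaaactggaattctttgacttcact
C4b: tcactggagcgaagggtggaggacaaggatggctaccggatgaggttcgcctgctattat
C3: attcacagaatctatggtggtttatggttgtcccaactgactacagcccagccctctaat
C1s, dimmer probe: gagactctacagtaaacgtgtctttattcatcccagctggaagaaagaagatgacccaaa
In build mm7, as in the array files, the C1qa probe lies at chr4:136274931-136274990, the C1qb probe at chr4:136259100-136259159 and the C1qc probe at chr4:136268288-136268347, so the chains of C1q were read from neighbouring genes. The C4b probe lies at chr17:32815561-32815620 and the C3 probe at chr17:55414567-55414626. The brighter C1s probe lies at chr6:124555678-124555737 and the dimmer one at chr6:124556317-124556376, both under the accession that RefSeq names C1s1. For Serping1 the listed interval, chr2:84609527-84611033, spans 1507 bases and is longer than the probe. GC content of the member probes ran from 38.3% to 55.0%, against a median of 40.0% over the 41165 other probes. The longest run any member probe shared with another gene's probe was 13 bases. C4a and C4b are near-identical paralogs, so the C4b probe is taken as a reading of C4 that may include both.

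RefSeq promoter windows of assembly GRCm38.p6, from 250 bases before to 50 bases after a gene's start, were found for 4 of the 7 genes. The 120 bases before the start of C3, chr17:57228137-57228256 on the minus strand, are shown because C3 had the widest spread over the mice and because its window held several matches to one motif. Capitals mark the letters TTNNGNAA, searched on both strands as a short form of the C/EBP motif.
C3 promoter: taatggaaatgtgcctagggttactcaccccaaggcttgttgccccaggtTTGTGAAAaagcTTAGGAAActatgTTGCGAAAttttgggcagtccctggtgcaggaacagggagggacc
There were 3 such matches, starting at positions 51, 63 and 76 of the bases shown, and at least 1 match was present in 40.7% of all 32851 promoter windows. The letters GAGGAA, a core of the PU.1 motif found in 28.3% of windows, occurred once each in the C1qb and C1qc windows. The C1qc and C1s1 windows held TTNNGNAA as well, and the C1qb window did not. No match to one motif overlapped a match to another. Such matches describe the letters only.

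The 4 arrays shared a slide and a scan. The arrays of a genotype sat side by side on it, so an effect of position and one of genotype cannot be told apart. No spot of a member probe carried an outlier flag. The arrays differed in brightness of the mouse channel, whose median background-subtracted signal was 90.1 and 81.9 in mutant mice 1 and 2, against 20.5 and 55.1 in null mice 1 and 2. The pool channel had medians between 24.2 and 24.9. The array of null mouse 1 also had the fewest probes well above background in the mouse channel, 22183, where the other arrays had 25047 to 26168, and its ratios were the most spread, with a standard deviation of 0.54 against 0.29 to 0.44. The part of this brightness in the ratios was not tested, and results are given with and without null mouse 1 where it decides them.

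Most of these genes were above the wild-type pool in 3 of the 4 mice and below it in null mouse 1. The pattern held for 6 of the 8 probes, namely those of C1qa, C1qb, C1qc, Serping1, C4b and C3, and 11.4% of all probes that passed the filter had it. The median over the 8 probes was 0.91 and 0.70 in mutant mice 1 and 2, against -0.61 and 1.41 in null mice 1 and 2. Over all probes the array medians lay between -0.0062 and 0.028. For no probe did the mutant and null mice separate, while 30.4% of all probes had genotypes whose arrays did not overlap. In RNA from a whole gland, fewer cells of a type and less RNA per cell cannot be told apart.

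**Figure D1:**
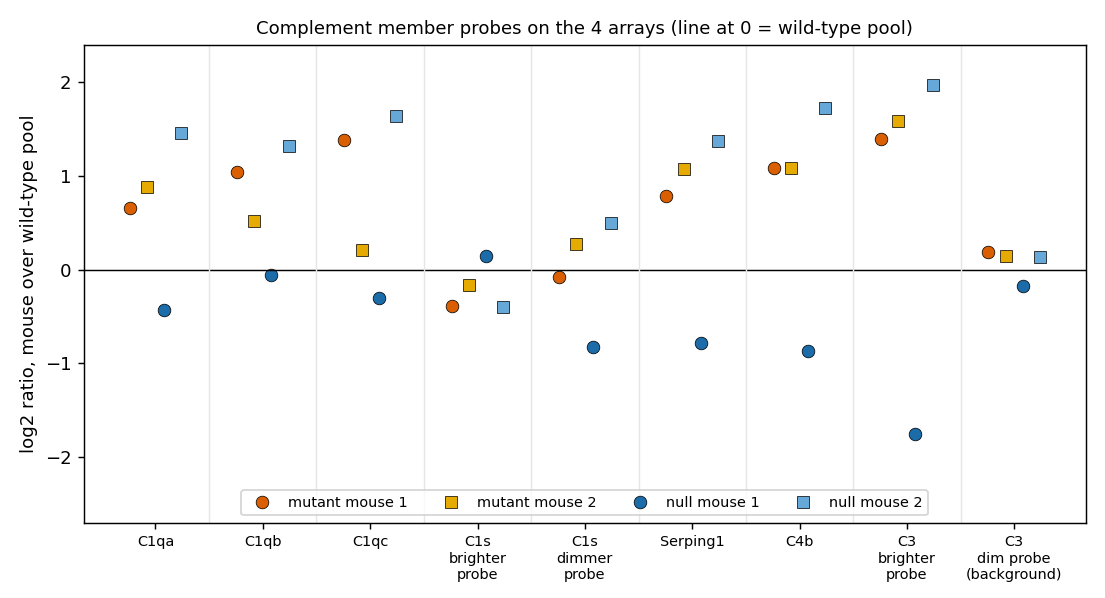
Log2 ratio of mouse over wild-type pool (vertical axis) for each of the 9 member probes (horizontal axis), with 1 point per mouse and the pool at 0. Null mouse 1 lies lowest at 7 of the 8 probes that passed the filter, null mouse 2 lies highest at the same probes, and both mutant mice lie between them.

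The C1q chains had the null mice in the same order but not the mutant mice. C1qa had log2 ratios of 0.66 and 0.89 in mutant mice 1 and 2, against -0.43 and 1.45 in null mice 1 and 2. For C1qb the ratios were 1.05 and 0.52 in the mutant mice, against -0.06 and 1.32 in the null mice. C1qc was at 1.38 and 0.21 in the mutant mice, against -0.30 and 1.63 in the null mice. At all 3 chains the mutant pair fell inside the range of the null pair, and null mouse 2 was the highest of the 4. Mutant mouse 2 was above mutant mouse 1 for C1qa and below it for C1qb and C1qc. The gap between the mutant mice at C1qc was -1.17 (mouse 2 minus mouse 1), a size reached by 1.58% of all probes.

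In the background-subtracted signals null mouse 1 was again the lowest at each C1q chain, while the highest mouse was null mouse 2 for C1qa and mutant mouse 1 for C1qb and C1qc. The background-subtracted C1qa signal of the mouse channel was 1292 and 1361 in the mutant mice, against 141 and 1729 in the null mice, with 218 to 253 in the pool channel. For C1qb the mouse channel read 826 and 390 in the mutant mice, against 66.8 and 641 in the null mice, with 71.1 to 95.1 in the pool. C1qc read 2143 and 766 in the mutant mice, against 105 and 1814 in the null mice, with 172 to 231 in the pool. All were well above background in both channels on all 4 arrays. Signals of the red and green channels are not on a common scale, since the dyes differ in brightness.

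The probes of C1s, the protease that C1q activates, were unlike each other, and the brighter one did not follow the C1q chains. The brighter C1s probe, with mouse-channel signals of 25539 and 24681 in the mutant mice, against 8468 and 15355 in the null mice, had log2 ratios of -0.39 and -0.16 in the mutant mice, against 0.14 and -0.40 in the null mice. The pool channel read 6928 to 8310 there. It was the only probe of the 8 at which null mouse 1 was the highest animal. The dimmer C1s probe had ratios of -0.08 and 0.28 in the mutant mice, against -0.82 and 0.49 in the null mice, from mouse-channel signals of 356 and 481 in the mutant mice, against 28.0 and 409 in the null mice. The sign of C1s therefore depended on the probe, and it also depended on the scaling: with each array centred on its median instead of loess, the brighter probe read 0.92 and 0.90 in the mutant mice, against 0.32 and 0.52 in the null mice. Under that scaling the medians of the probes that passed the filter moved to 0.62 and 0.56 on the mutant arrays, and to -0.04 and 0.41 on the null arrays. The centring itself used all non-control spots without an outlier flag, dim ones too.

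**Figure D2:**
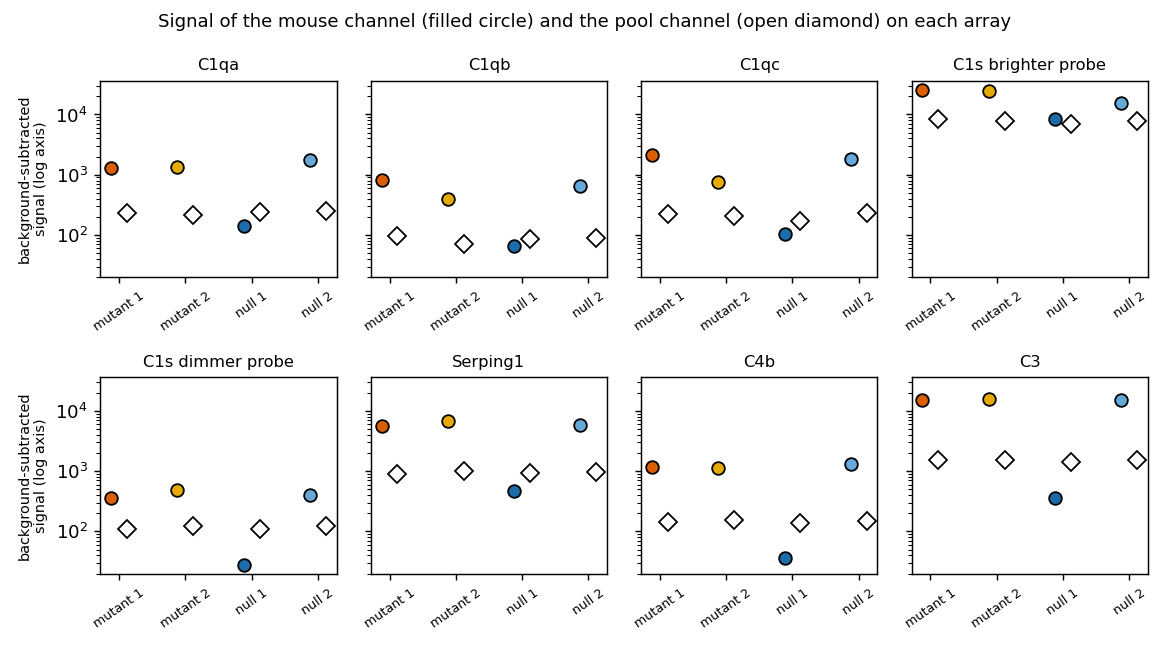
Background-subtracted signal (vertical axis, log scale) of the mouse channel (filled circles) and the pool channel (open diamonds) on each array, in 1 panel per probe that passed the filter. The pool signal of each gene is nearly level over the arrays, while the mouse signal of C3 is 15026 and 15456 in the mutant mice, against 352 and 14885 in the null mice.

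Serping1, the inhibitor of C1r and C1s, lay close to C1qa in each mouse and far from the brighter C1s probe. Its log2 ratios were 0.78 and 1.08 in the mutant mice, against -0.78 and 1.37 in the null mice. Mouse-channel signals were 5627 and 6832 in the mutant mice, against 476 and 5882 in the null mice, with 906 to 989 in the pool. Among all pairs of member probes, Serping1 and C1qa had the closest values over the 4 arrays, with a root mean square difference of 0.21, followed by C4b and Serping1 at 0.24 and by C1qb and C1qc at 0.30. The probes of C1s were 0.71 apart from each other. These distances describe 4 arrays and carry no test.

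C4b, the substrate of C1s, was above the pool by nearly equal amounts in the mutant mice. The log2 ratios were 1.09 and 1.08 in the mutant mice, about 2.12-fold, and -0.87 and 1.73 in the null mice. Signals in the mouse channel were 1183 and 1148 in the mutant mice, against 36.7 and 1324 in the null mice, where the pool read 137 to 152. The ratio of null mouse 1 rests on a dim signal, and with Agilent's processed signals in place of the normexp correction, which adds a constant to both channels, it was -1.63. The dimmer C1s probe likewise read -1.57 in null mouse 1 by the processed signals. The C4a probe was not well above background on any array in either channel.

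C3, at the centre of the cascade, spanned the widest range. Its 10 spots averaged 1.39 and 1.59 in the mutant mice, against -1.75 and 1.97 in the null mice. These are levels 2.63-fold and 3.00-fold above the pool in the mutant mice and, among the null mice, 3.37-fold below it in mouse 1 and 3.91-fold above it in mouse 2. Within an array the 10 spots had a standard deviation of 0.04 and 0.06 on the mutant arrays, and of 0.10 and 0.07 on the null arrays, so spot noise was small beside the gaps between mice. The mouse channel read 15026 and 15456 in the mutant mice, against 352 and 14885 in the null mice, whereas the pool channel stayed at 1426 to 1540. The second C3 probe, with a listed interval of 158 bases at chr17:55435522-55435679, was not well above background on any array in either channel. It read 0.19 and 0.15 in the mutant mice, against -0.18 and 0.13 in the null mice, and has no bearing on the level of C3.

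The first comparison the design sets up is mutant against null, which asks how the R654W form of the protein compares with loss of both Rb1 alleles. Of the member probes, 0 of 8 were called at an adjusted p under 0.05 in limma, and the background share of calls was 0% of 24852 probes. At an unadjusted p under 0.05 the members also gave 0 of 8, where 2.18% of all probes passed. C3 averaged 1.49 ± 0.14 in mutant mice and 0.11 ± 2.63 in null mice (SD, n = 2 each), a difference of 1.38 with a standard error of 1.19 and a 95% interval from -1.66 to 4.43. C4b averaged 1.09 ± 0.0013 in mutant mice and 0.43 ± 1.83 in null mice, and the difference of 0.65 had an interval from -1.49 to 2.80. The spread between the null mice was larger than either difference.

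For the remaining genes the differences between genotypes were smaller. Serping1 averaged 0.93 ± 0.21 in mutant mice and 0.30 ± 1.52 in null mice, with a difference of 0.63 and an interval from -1.18 to 2.45. The C1q chains differed by 0.26 (C1qa, -1.34 to 1.86), 0.15 (C1qb, -1.12 to 1.42) and 0.13 (C1qc, -1.75 to 2.01). The brighter C1s probe differed by -0.14 (-0.79 to 0.51) and the dimmer one by 0.26 (-0.92 to 1.45). Adjusted p in limma ran from 0.985 to 0.994 over the 8 probes. These intervals are wide, so the data set no close limit on a difference in either direction, and an exact permutation of 2 against 2 arrays cannot give a p below 0.333.

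The direction of every mutant-minus-null difference rested on null mouse 1. Without it, all 8 differences changed sign: C3 stood at -0.48, C4b at -0.64, Serping1 at -0.44, C1qa at -0.68, C1qb at -0.54, C1qc at -0.84, the dimmer C1s probe at -0.39 and the brighter one at 0.13. Without null mouse 2, C3 stood at 3.24 and C4b at 1.95. C1qb and C1qc also changed sign without mutant mouse 1, to -0.11 and -0.46. The mouse left alone in its group was assumed to vary like the others.

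Against the pool, which asks how each genotype stands beside wild-type prostate, the members again gave no call. The pool enters as 1 control sample, so the spread among wild-type mice is not in these tests, and an unequal response of the dyes stays in the ratios. Mutant against pool gave 0 of 8 member probes at an adjusted p under 0.05 (background 0%) and 0 of 8 at an unadjusted p under 0.05 (background 10.6%), with limma adjusted p from 0.486 to 0.927. Null against pool gave 0 of 8 (background 0%) and 0 of 8 (background 10.2%), with limma adjusted p from 0.544 to 0.971. The median ratio over the 8 probes was 0.79 in mutant mice and 0.36 in null mice, beside medians of 0.026 and 0.016 over all probes. Both mutant mice were above the pool for C1qa, C1qb, C1qc, Serping1, C4b and C3, a sign shared by both mutant mice at 37.2% of all probes.

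With all 4 mice set against the pool, the members gave 0 of 8 calls where 3 of all probes were called (0.0121%). At an unadjusted p under 0.05 there was 1 of 8, against 17.6% of all probes. That probe was C1qb, whose mean over the 4 mice was 0.71 with a standard error of 0.25 (adjusted p = 0.258 in limma). The fit takes the mean of the mutant mean and the null mean, so a mouse left alone in its group carries the whole weight of that group. Without null mouse 2, this mean of the genotype means was 0.36 for C1qb. Leaving out null mouse 1 raised the mean of the genotype means to 1.73 for C3 and to 1.41 for C4b. The plain means over the 3 mice kept were 1.65 for C3 and 1.30 for C4b. Without null mouse 2, the mean of the genotype means was -0.13 for C3, although both mutant mice were above the pool, at 1.39 and 1.59. Null against pool then rested on null mouse 1 alone, at -1.75 for C3.

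The null mice were far apart at most of these genes. Null mouse 2 was the highest and null mouse 1 the lowest of the 4 animals at 7 of the 8 probes, an order seen at 11.8% of all probes. The gap between them (mouse 2 minus mouse 1) was 3.72 for C3, a size that 0.0563% of probes reached. It was 2.59 for C4b (0.382% of probes as large), 2.16 for Serping1 (0.62%), 1.94 for C1qc (0.869%), 1.88 for C1qa (0.93%), 1.38 for C1qb (1.95%) and 1.31 for the dimmer C1s probe (2.16%). These 7 probes lay past the 97.5th percentile of the gap, which was 1.23, and the brighter C1s probe lay at -0.54. Between the mutant mice the same percentile (mouse 2 minus mouse 1) was 0.71, and 0 of 8 member probes lay past it, while the C1qc gap of -1.17 ran the other way.

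**Figure D3:**
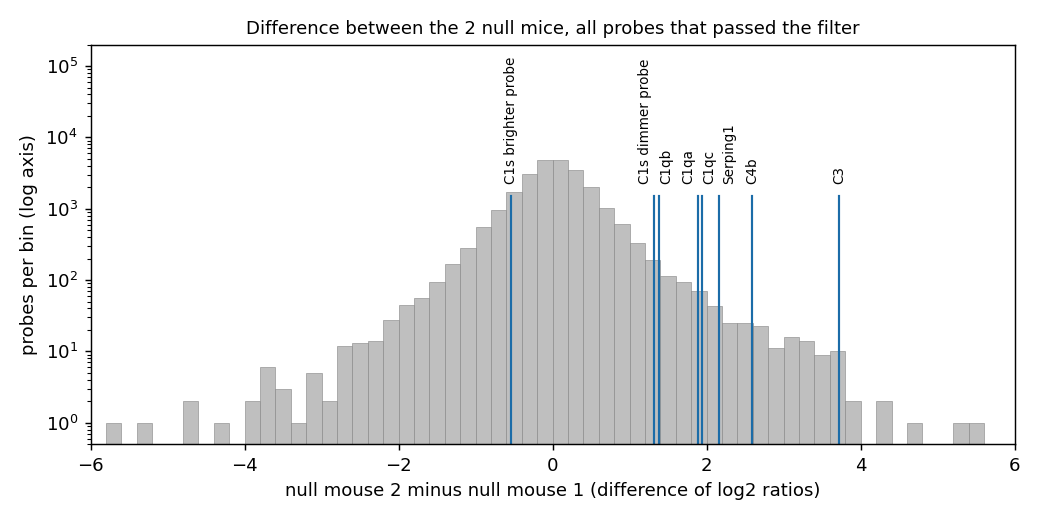
Histogram of the difference in log2 ratio between null mouse 2 and null mouse 1 over the 24852 probes that passed the filter (horizontal axis in log2 units, vertical axis a log scale of probes per bin), with blue lines at the 8 member probes. Lines for 7 members lie at 1.31 or more, in the upper tail, and C3 is the farthest at 3.72.

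Markers of macrophages, the main source of C1q, had the mice in nearly the same order as the members. All 12 macrophage markers passed the filter, and their median ratio was 0.70 and 0.61 in the mutant mice, against -0.19 and 1.27 in the null mice. At 11 of the 12, null mouse 2 was highest and null mouse 1 lowest, an order seen at 11.8% of all probes. Below the pool in null mouse 1 alone were 8 of the 12 (background 11.4% of all probes). In null mouse 1, 3 of the 12 were above the pool. Adgre1, which codes for a macrophage surface receptor, had ratios of 1.01 and 1.01 in the mutant mice, against -0.37 and 1.72 in the null mice. Csf1r, the receptor for macrophage growth factor, had 0.69 and 0.70 in the mutant mice, against -0.62 and 1.099 in the null mice, and lysosomal Cd68 had 0.49 and 0.38 in the mutant mice, against -0.03 and 0.70 in the null mice. The summed mouse-channel signal of the 12 was 36582 and 28712 in the mutant mice, against 2418 and 33093 in the null mice, with 3765 to 4242 in the pool channel. Such sums are not normalised for the brightness of an array, and null mouse 1 had the lowest sum for every marker list. For smooth muscle the sums were 409365 and 301068 in the mutant mice, against 177232 and 299979 in the null mice. For prostate epithelium they were 670433 and 482285 in the mutant mice, against 265473 and 320294 in the null mice.

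Fibroblast and adipocyte markers were also low in null mouse 1. The 8 fibroblast markers had median ratios of 0.54 and 0.64 in the mutant mice, against -0.85 and 0.87 in the null mice, with summed mouse signals of 84579 and 81823 in the mutant mice, against 9730 and 81344 in the null mice. Dcn, which codes for the matrix proteoglycan decorin, read 0.08 and 0.49 in the mutant mice, against -0.92 and 0.95 in the null mice. The 3 adipocyte markers that passed had medians of 0.74 and 1.47 in the mutant mice, against -1.54 and 1.51 in the null mice. Smooth muscle markers did not share this: their medians were -0.10 and -0.54 in the mutant mice, against 0.09 and -0.10 in the null mice. The epithelial keratin gene Krt8 was highest in null mouse 1, with -0.13 and -0.49 in the mutant mice, against 1.30 and -0.39 in the null mice. Its partner keratin Krt18 had 0.27 and -0.07 in the mutant mice, against 0.85 and -0.11 in the null mice. Of the prostate epithelial markers, 7 of 7 with a probe passed the filter, with medians of 0.27 and 0.12 in the mutant mice, against -0.17 and -0.17 in the null mice. Pbsn, the prostate secretory gene probasin, read 1.17 and 0.91 in the mutant mice, against 0.34 and -0.21 in the null mice. Msmb, which codes for another secreted prostate protein, read 1.93 and 0.68 in the mutant mice, against -3.13 and -0.17 in the null mice, so it was far below the pool in null mouse 1.

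Markers of hepatocytes and neutrophils were mostly at background. Of the 6 hepatocyte markers with a probe, all but Tat failed the filter, and Alb, the albumin gene, was not well above background on any array. Of the 6 neutrophil markers, 5 also failed, and the remaining one, S100a9, was above background in 3 mouse channels only, at 0.32 and 0.24 in the mutant mice, against -0.10 and 1.92 in the null mice. The 5 lymphocyte markers that passed had medians between 0.03 and 0.07 on every array. Genes of the seminal vesicle, the gland beside the prostate, were below the pool, with medians over the 4 that passed of -4.08 and -0.61 in the mutant mice, against -4.64 and -3.59 in the null mice, an order that the members did not share. The part of macrophage, fibroblast or adipocyte content in the complement values was not tested.

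**Figure D4:**
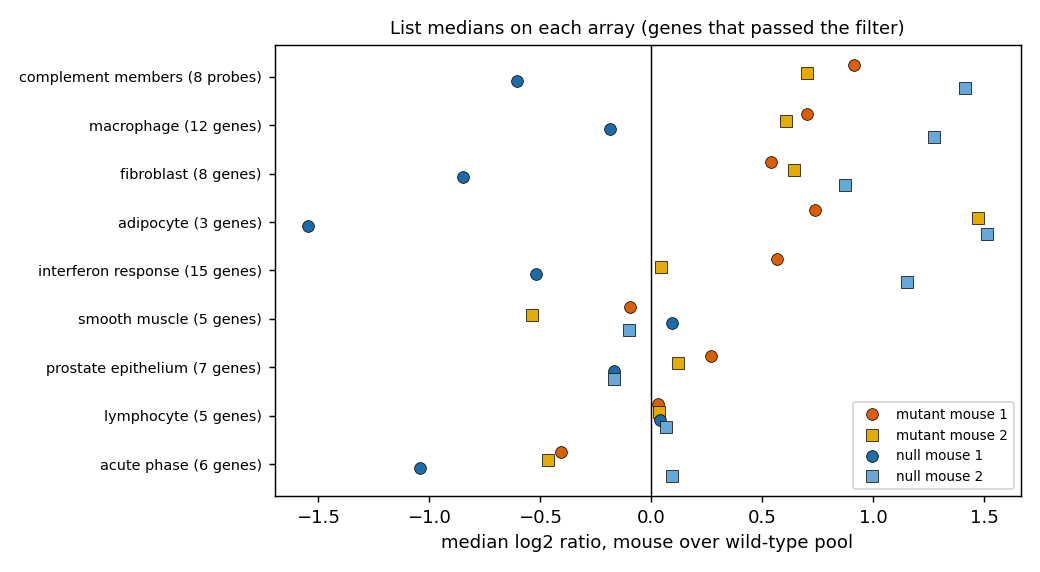
Median log2 ratio of mouse over pool (horizontal axis) on each array for the member probes and for lists of cell type and response genes (vertical axis), with 1 point per mouse. Null mouse 1 is below 0 and below the other mice for complement members, macrophage, fibroblast, adipocyte, interferon response and acute phase genes, level with null mouse 2 below 0 for prostate epithelium, and above the other mice for smooth muscle.

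Genes that respond to interferon or to the acute phase, responses that raise complement in other tissues, gave unlike pictures. The 15 interferon response genes had medians of 0.57 and 0.05 in the mutant mice, against -0.52 and 1.15 in the null mice. Of the 15, 11 were highest in null mouse 2 and lowest in null mouse 1, an order seen at 11.8% of all probes. Irf7, an interferon-inducible transcription factor, read 1.28 and 0.05 in the mutant mice, against -0.52 and 1.84 in the null mice. For the 6 acute phase genes that passed, medians were -0.41 and -0.46 in the mutant mice, against -1.04 and 0.09 in the null mice. The brightest, Saa1, read -0.93 and -1.09 in the mutant mice, against -1.42 and 0.06 in the null mice. Hp, the next brightest, read 0.63 and 1.49 in the mutant mice, against -1.73 and 1.14 in the null mice. Only Hp, 1 of the 6, was below the pool in null mouse 1 alone, as C3 was (background 11.4% of all probes). Lcn2, an acute phase iron-trapping protein, was below the pool in every mouse, at -0.96 and -0.82 in the mutant mice, against -1.16 and -1.01 in the null mice (adjusted p = 0.133 in limma for all 4 mice against the pool).

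Beyond the members, 50 further complement genes were listed, of which 48 had a probe and 32 passed the filter. Of these, 0 were called in any of the 4 comparisons in limma, and an unadjusted p under 0.05 was reached by 1 gene, Cr1l, for mutant against null (2.18% of all probes). It was reached by 7 for mutant against pool (10.6% of all probes), 8 for null against pool (10.2%) and 9 for all mice against pool (17.6%). Their array medians were 0.18 and 0.22 in the mutant mice, against -0.01 and 0.36 in the null mice, nearer to the pool than those of the members. Null mouse 2 was highest and null mouse 1 lowest for 12 of the 32, an order seen at 11.8% of all probes. Mutant and null mice separated for 8 of the 32, with Cr1l and Susd4, or 2 genes, higher in mutant mice (background 16.7% of all probes) and 6 lower (background 13.6%).

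Upstream of C3, C1 protease genes lay on both sides of the pool. Among the C1 proteases, C1ra, the partner of C1s, was above the pool in every mouse at its brighter probe, at 0.23 and 0.28 in the mutant mice, against 0.68 and 0.16 in the null mice, but its second probe read -0.48 and 0.06 in the mutant mice, against -0.30 and -0.57 in the null mice. C1sb, a duplicate of the C1s gene in mice, was below the pool throughout, at -1.02 and -0.40 in the mutant mice, against -0.47 and -0.87 in the null mice. In the lectin pathway 5 of 9 genes passed, and Colec12, a scavenger receptor of the collectin family, read 0.74 and 0.82 in the mutant mice, against 0.22 and 1.45 in the null mice. A dimmer Colec12 probe read 0.18 and 0.16 in the mutant mice, against -0.14 and 0.73 in the null mice. C2, which joins C4 in the classical enzyme, was above the pool in every mouse at its brighter probe only. That probe read 0.49 and 0.71 in the mutant mice, against 0.05 and 0.88 in the null mice. The dimmer C2 probe read -0.10 and 0.40 in the mutant mice, against -0.21 and 0.49 in the null mice. The genotypes overlapped for each of these genes.

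The alternative pathway, which amplifies C3 cleavage, passed whole, with 3 of 3 genes measured. Cfb, whose product takes the place of C2 there, read -0.62 and -0.38 in the mutant mice, against -1.74 and 0.10 in the null mice, so it was below the pool in 3 mice where C3 was above it in 3. Cfp, or properdin, which stabilises the C3-splitting enzyme, was above the pool in every mouse, at 0.18 and 0.38 in the mutant mice, against 0.28 and 0.80 in the null mice. Of the terminal components, which build the pore, 2 of the 6 with a probe passed. One of them, C6, read 0.12 and 0.27 in the mutant mice, against 0.02 and 0.22 in the null mice, with the pool at background.

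The regulators held the complement gene farthest from the pool by its mean over the 4 mice. Clu, which codes for clusterin, an inhibitor of pore assembly, was below the pool in every mouse, at -2.74 and -1.35 in the mutant mice, against -2.33 and -1.91 in the null mice. Its mean of -2.09 over the 4 mice had a standard error of 0.25 and did not pass the threshold (adjusted p = 0.179 in limma). Cd55, which breaks up C3-splitting enzymes on the cell surface, was above the pool throughout at its brightest probe only. That probe read 0.45 and 0.44 in the mutant mice, against 0.59 and 0.39 in the null mice. A dimmer Cd55 probe that passed read -0.04 and 0.21 in the mutant mice, against 0.07 and 0.32 in the null mice. Cd59b, a membrane inhibitor of the pore, read 0.19 and 0.08 in the mutant mice, against 0.35 and 0.40 in the null mice. Of the genes for receptors, 6 of 10 passed, and those for C3ar1, C5ar1, Cr2 and Vsig4, which bind fragments of C3 or C5, did not. C5ar2, a second receptor for C5a, read 0.15 and 0.03 in the mutant mice, against 0.55 and 0.33 in the null mice. Itgam, part of a receptor for cleaved C3 on myeloid cells, read 0.15 and 0.23 in the mutant mice, against 0.09 and 0.52 in the null mice. Cd93, a surface protein of myeloid and endothelial cells, read 0.06 and 0.04 in the mutant mice, against 0.09 and 0.45 in the null mice. C5ar2, Itgam and Cd93 were named because they lay on one side of the pool in all 4 mice. Of the 6 receptor genes that passed, 3 were above the pool in every mouse.

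**Figure D5:**
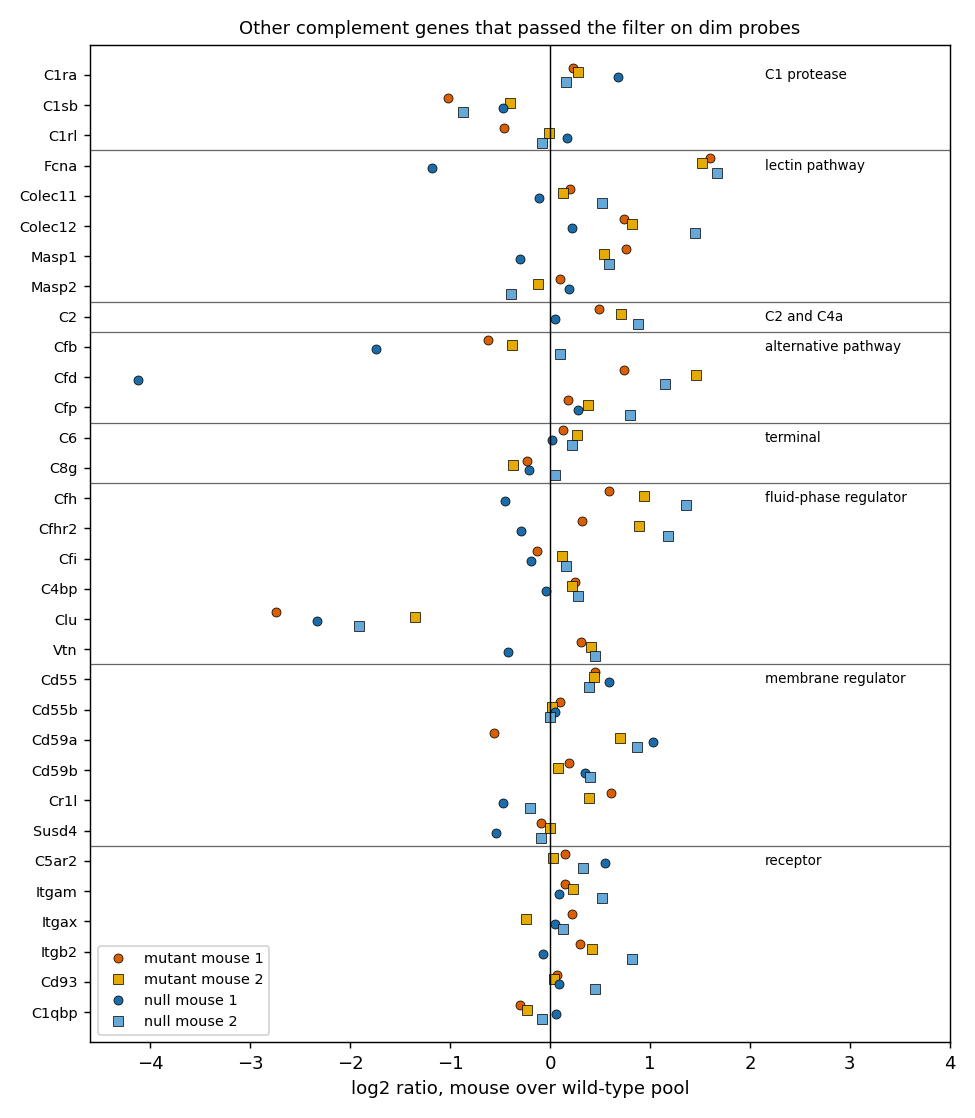
Log2 ratio of mouse over pool (horizontal axis) for the 32 other complement genes that passed the filter, grouped by role from top to bottom, with 1 point per mouse and the brightest probe standing for a gene. Clu lies below -1.3 in every mouse, while most of the other genes lie within 1 log2 unit of the pool.

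The genes most like the members over the 4 arrays were sought among 12054 named genes with a probe that passed the filter, by the root mean square difference in log2 ratio. Closest to the mean of the C1q chains were the chemokine gene Ccl19 (0.105), then Gbp4, which RefSeq names Gbp3 (0.125), Iigp2 or Irgm2 (0.134), Isg15 (0.146) and Pla1a (0.151). Ccl19 read 1.04 and 0.50 in the mutant mice, against -0.33 and 1.27 in the null mice. There were 228 genes within 0.5 of the C1q mean. Closest to C3 were Mgl1, now Clec10a, which codes for a macrophage lectin (0.163), F13a1 (0.182), Apod (0.320), Retnla (0.333) and Lyzs, now Lyz2, the macrophage lysozyme (0.333), and 11 genes lay within 0.5 of it. Clec10a read 1.57 and 1.43 in the mutant mice, against -1.55 and 2.08 in the null mice. With 4 arrays such closeness is a description, and a gene with wide gaps has fewer neighbours.

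The authors' deposited table gives group mean ratios over the pool, with no value per mouse. Its ratios are linear, whereas the fit averaged log2 ratios, so the means are not on a common scale. As linear ratios, the C3 values of null mice 1 and 2 in the fit were 0.30 and 3.91. For C3, 10 of its rows list 2.45 to 2.66 in mutant mice and 1.85 to 2.03 in null mice, and 1 further C3 row, whose probe is not named, lists 1.55 in mutant mice and 1.33 in null mice. The authors' deposited table has Serping1 at 1.73 in mutant mice and 1.45 in null mice, and C1s at 0.956 and 0.82. In all these rows the mutant mean was the higher. For C1s the row does not name its probe, and in the fit the mutant mean was lower at the brighter C1s probe and higher at the dimmer one. The table gives no standard deviation, and the table alone does not show the opposite positions of the null mice. The table has 26174 rows and no ratio between the groups under 1.13. The C1q chains and C4b were not found among its rows by the accessions of the array probes.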

How the data were processed

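Per the labels' protocols, total RNA was amplified and labelled with Cy3 or Cy5. The deposited array files hold spot intensity. Their headers name Agilent Feature Extraction 9.5.1.1, whereas version 8.5 stands in the submitters' processing notes. The deposited log10 ratio of processed signals served as an alternative, and the authors' deposited table gives a linear ratio per group.

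In limma 3.58.1 under R 4.3.3, mean signals were corrected against background medians by normexp (offset 50) and normalised within arrays by loess. Control spots had weight 0, outlier-flagged spots were left out, and the spots of a probe were averaged. The filter on dim signal kept a probe if, in at least 1 genotype, both mouse channels were well above background, or if the pool was so on all arrays. These 24852 probes were fitted with lmFit and eBayes, with a term per genotype and no replicate block, and p was Benjamini-Hochberg adjusted over all of them. The fit was tested on simulated data. Arrays of the same replicate number deviated together with a correlation of 0.0036, so the numbers give no pairing. The number of arrays limits the precision.

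The members and the gene lists were chosen with earlier results of these data known. Named genes are all members, Clu, C2, Cfb and C4a, and up to 4 complement genes a role with the largest mean among those on one side of 0 in every mouse. Set marker genes and the 5 genes nearest in pattern are named too. The brightest genes are named for some of the marker and response lists and not for all. Krt8, Msmb, Saa1, Hp, Susd4 and Cr1l were named after their values were seen. A gene of the set markers is not reported here.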

Additional observations from a re-analysis of the deposited data

How the results depend on the processing

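Member values kept their sign and their side of the threshold with Agilent processed signals, offset 16, no filter, 1 probe a gene or array weights. Median centring moved the median against the pool to 0.37 over the probes that passed the filter. There the brighter C1s probe changed sign in all comparisons (mutant minus null 0.49, mutant minus pool 0.91, null minus pool 0.42, all mice minus pool 0.66). Mutant minus pool was higher there at the other member genes, at 2.55 for C3, 1.81 for C4b, 1.91 for Serping1, 1.55 for C1qa, 1.37 for C1qb and 1.57 for C1qc, with no call. The dimmer C1s probe changed sign in null minus pool (0.0063) and all mice minus pool (0.33). With this centring 4250 probes were called for all mice against the pool, 1 of them a member, C1s (adjusted p = 0.0394 in limma). Calls for all mice against the pool numbered 6 with processed signals, 19 with offset 16 and 0 with no filter. Mutant minus pool gave 2 calls with offset 16, with 1 probe a gene and with array weights, and null minus pool gave 2 with offset 16. With replicate number as a block, calls for all mice against the pool went to 0, and no member changed sign or side of the threshold. The cause of these shifts was not tested.

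Leaving out 1 mouse in turn, mutant minus null ranged from -0.48 to 3.24 for C3, -0.64 to 1.95 for C4b, -0.44 to 1.71 for Serping1, -0.68 to 1.205 for C1qa, -0.54 to 0.84 for C1qb, -0.84 to 1.097 for C1qc, and -0.41 to 0.13 and -0.39 to 0.92 for the brighter and dimmer C1s probes. Null minus pool ranged from -1.75 to 1.97 for C3, -0.87 to 1.73 for C4b, -0.78 to 1.37 for Serping1, -0.43 to 1.45 for C1qa, -0.056 to 1.32 for C1qb, -0.30 to 1.63 for C1qc, and -0.40 to 0.14 and -0.82 to 0.49 for the C1s probes. For the dimmer C1s probe mutant minus pool ranged from -0.077 to 0.28 and all mice minus pool from -0.36 to 0.30, and for C3 all mice minus pool ranged from -0.13 to 1.73. Calls over all probes ranged from 0 to 9 for mutant minus null, 0 to 2 for mutant minus pool, 0 to 376 for null minus pool and 0 to 323 for all mice minus pool. Member calls were 0 for both comparisons of the mutant mice, 0 to 1 for null minus pool and 0 to 2 for all mice minus pool, and the calls above 0 came with 1 null mouse left out. Dim signal limits C4b and the dimmer C1s probe in null mouse 1.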

Other observations

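C4b lies in the class III region of the major histocompatibility complex, whose genes were listed as neighbours, and 17 of 19 with a probe passed the filter. With the brightest probe standing for a gene, the mutant and null mice separated for 5 of them, Skiv2l, Slc44a4, D17H6S56E-5, Vars and Lsm2, all higher in mutant mice (background 16.7% of all probes), and C4b, C2 and Cfb of the same region were not among them. A dimmer Lsm2 probe did not separate them, at -0.86 and 0.25 in the mutant mice, against 0.09 and 0.23 in the null mice. Dimmer probes of Tnxb, Stk19 and Neu1 did separate them, with the mutant mice higher, where the brightest probes of these genes did not. The dimmer Neu1 probe read -0.21 and 0.13 in the mutant mice, against -0.63 and -0.30 in the null mice. The count of 5 thus depended on the probe. D17H6S56E-5 read 1.09 and 0.73 in the mutant mice, against -1.39 and -1.26 in the null mice, a difference of 2.23 that did not pass the threshold (adjusted p = 0.985 in limma). Slc44a4, which codes for a membrane transporter, read 0.43 and 0.55 in the mutant mice, against -0.54 and -0.04 in the null mice. Hspa1a, a heat shock gene of the region, read 1.40 and -0.22 in the mutant mice, against 5.89 and 0.25 in the null mice, so null mouse 1 stood highest there and lowest at C4b.

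Some other complement genes also had null mouse 1 far below the rest. Cfd, which codes for adipsin, the protease that starts the alternative pathway and a product of fat cells, read 0.74 and 1.46 in the mutant mice, against -4.12 and 1.15 in the null mice. Fcna, a ficolin of the lectin pathway made by macrophages, read 1.60 and 1.52 in the mutant mice, against -1.18 and 1.68 in the null mice, where null mouse 1 was not well above background. Cr1l, which codes for the membrane regulator Crry of rodents, was one of the 2 complement genes with both mutant mice above both null mice, at 0.61 and 0.39 against -0.47 and -0.20 in the null mice (adjusted p = 0.985 in limma). Cfd, Fcna, Cr1l and Hspa1a were chosen after their values were seen.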
